A study of Mus musculus with 36 samples.

Results

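The growth of the transcriptional response to corticosterone was followed in mouse cortical astrocyte cultures by setting the 9 arrays of steroid-treated cultures, 3 each at 2, 4 and 6 h, directly against one another. They are 9 of the 36 bead arrays of the study and were taken by their labels, as all arrays of 100 nM corticosterone without the antagonist RU486. The 9 vehicle arrays, 3 at each of the same times, showed how transcripts moved with time in the absence of added steroid, and the mean difference from them picked out the genes that responded. All cultures came from C57B/6 pups (spelled as labelled) at P0-P2, and were grown nearly to confluence in medium with fetal bovine serum, which was not removed before treatment as far as the labels say. The remaining arrays, of 500 nM RU486 alone or with corticosterone, enter only an alternative fit. The labels call the cultures cortical, although their growth protocol speaks of cortex or hippocampus. The labels do not say whether the 3 replicates of a group were grown apart, and every p-value below rests on the differences among arrays alone, some or all of which may be technical.

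Corticosterone is the main glucocorticoid of rodents. It binds the glucocorticoid receptor, a cytoplasmic protein held by heat shock proteins, which then enters the nucleus and raises or lowers the transcription of target genes. Astrocytes express the receptor, and some of its targets act back on the pathway, such as Fkbp5, a co-chaperone that lowers the receptor's affinity for hormone. How a transcript accumulates after such a switch depends on the rates at which it is made and broken down, so different targets reach their new level at different times. The comparison asks which transcripts kept moving, levelled off or faded between 2 and 6 h.

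Markers of astrocytes were present. Of 16 astrocyte markers 15 were measured, all of them above the array median on all 9 corticosterone arrays, and their summed intensity was 97042.3 to 117863.3 at 2 h, 91489.5 to 112486.3 at 4 h and 106610.7 to 118920.7 at 6 h. Some markers of other cells were measured too, although sums over different probes cannot be ranked: 8 of 12 neuronal markers summed to 7968.5 to 9115.5, 10 of 12 microglial markers to 2102.8 to 4384.8, 8 of 10 endothelial markers to 1384.5 to 1727.2, and 7 of 10 fibroblast and meningeal markers to 1790.8 to 2442. The 9 of 10 oligodendrocyte-lineage markers measured summed to 25482.2 to 30937.7, nearly all of it from Olig1. In RNA from whole cultures, fewer cells of a type and less RNA per cell cannot be told apart. The corticosterone arrays resembled one another, with median correlations to the rest of 0.976 to 0.988 across genes, but vehicle 6 h replicate 1 stood apart at 0.757, against 0.97 to 0.99 for the other vehicle arrays. Counts that rest on the vehicle arrays are therefore given with and without it, single vehicle changes between 2 and 6 h without it unless stated, and differences from vehicle at 6 h with all arrays unless stated.

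More genes were called between 2 and 4 h than after it. Of 18935 genes, 2587 were higher and 2268 lower at 4 h than at 2 h of corticosterone (25.6% of the genes tested, limma with Benjamini-Hochberg adjustment, threshold 0.05), and 2753 were higher and 2595 lower at 6 h than at 2 h (28.2%). Between 4 and 6 h limma called none (0%), although 2088 genes had an unadjusted p under 0.05 and the smallest adjusted p was 0.115. With arrays weighted by their noise the same step gave 388 higher and 431 lower genes, and normexp background correction gave 1. With the spread pooled over all 36 arrays, 696 genes were called at 4 h and 993 at 6 h, each against 2 h. Over all genes the median size of a difference was 0.19 on the log2 scale between 2 and 4 h and 0.094 between 4 and 6 h. Leaving out 4 h replicate 3 gave 2841 at 4 h, and leaving out 6 h replicate 1 or 2 gave 3441 or 3364 at 6 h.

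The second step was small for most genes tested, those called at both later times included. Of 1914 genes higher at both later times, the median change was 0.48 on the log2 scale between 2 and 4 h and 0.03 between 4 and 6 h. For 1561 of them the 95% interval of the second step lay within 0.5 of 0. Of 1496 genes lower at both later times, the medians were -0.42 and -0.01, and for 1367 the interval of the second step lay within that band. Over all genes the standard error (SE) of the second step had a median of 0.11, and its interval lay within the band for 15815 genes, 83.5% of those tested. For the other genes the interval reached past that band. The 839 genes higher and 1099 lower only at 6 h against 2 h had steps of like size, with medians of 0.22 and 0.19, and of -0.21 and -0.18. All of these groups were picked by calls against 2 h, and the 2 steps share the 4 h arrays. Their medians therefore describe the groups and do not test whether genes levelled off.

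Most of the change was shared with vehicle. Without vehicle 6 h replicate 1, 5040 of the 5348 genes called between 2 and 6 h of corticosterone (94.2%) had moved in the same direction in vehicle. With all vehicle arrays 4231 (79.1%) had. Among all 18935 genes tested these shares were 79.1% without that array and 68.1% with it. The called genes had a median change of 0.43 under corticosterone and, in that direction, 0.30 under vehicle without that array. Over all genes the 2 sets of changes correlated with r = 0.767 across genes, which are not independent replicates, and with r = 0.495 when all vehicle arrays were kept. Between 2 and 4 h, 4579 of 4855 called genes (94.3%) moved alike, beside 77.8% of all genes tested. The vehicle cultures themselves gave no call by limma's F test with all 9 arrays (1252 genes at an unadjusted p under 0.05), 736 without replicate 1 at 6 h (3.89%) and 3267 with array weights. Without that array 801 genes were higher and 237 lower at 4 h than at 2 h of vehicle (5.48% in all, 4.23% and 1.25%), 451 were higher and 179 lower at 6 h than at 2 h (3.33% in all, 2.38% and 0.945%), and none was called between 4 and 6 h (840 at an unadjusted p under 0.05). A difference between corticosterone arrays of different times is therefore not by itself a response to the steroid.

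**Figure D1:**
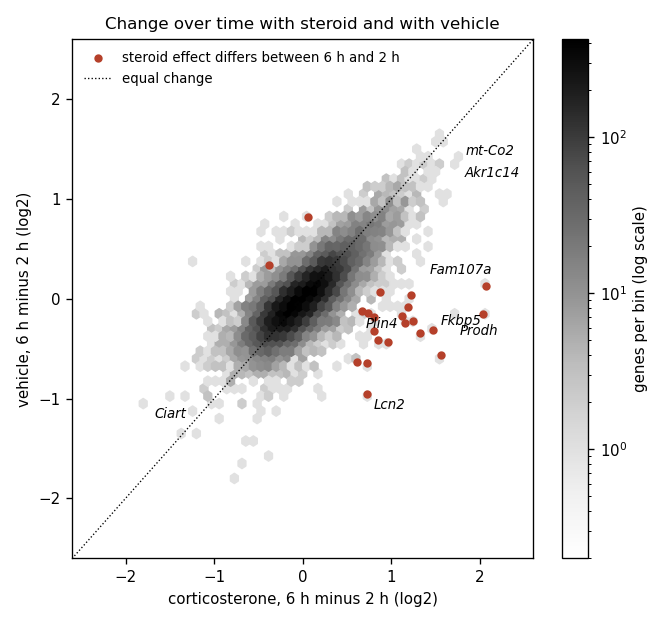
Change between 2 and 6 h for 18935 genes, in log2 units, with corticosterone on the horizontal and vehicle without 6 h replicate 1 on the vertical axis; grey bins hold more genes where darker, and the dotted line marks equal change. Red points are the 22 genes whose steroid effect differed between 6 h and 2 h without that array. Fam107a, Prodh, Fkbp5, Plin4 and Lcn2 lie far from the line. Of the other labelled genes, mt-Co2 and Akr1c14 lie nearer to it than Ciart.

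Several of the largest changes under corticosterone belonged to this shared group. The mitochondrial gene mt-Co2, a subunit of cytochrome oxidase, had intensities of 2730.5, 3351 and 3825 at 2 h, 9549.5, 9036 and 8308 at 4 h and 12873, 9549.5 and 10683 at 6 h with corticosterone. In vehicle it had 2235, 4775 and 5319 at 2 h, 8098, 8381 and 9707 at 4 h and 15256, 10388 and 9792 at 6 h. All 6 h arrays lay above all 2 h arrays in both series. It rose by 1.74 ± 0.14 under corticosterone (SE, adjusted p = 3.01e-05), and its difference under vehicle without 6 h replicate 1 was 1.39 ± 0.32, just short of the threshold (adjusted p = 0.0543), or 1.59 with it. Akr1c14, an aldo-keto reductase that acts on steroids, rose 3.33-fold under corticosterone, a log2 change of 1.74 against 1.36 in vehicle without that array and 1.91 with it. Omd, which encodes the matrix proteoglycan osteomodulin, and the small GTPase gene Rhob rose by 1.61 and 1.54, against vehicle changes of 1.02 and 1.01 without that array, which did not pass the test, and 1.90 and 0.53 with it.

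The steepest fall was that of Ciart, a repressor of the circadian clock, with 749, 556 and 669.5 at 2 h, 258, 251 and 239 at 4 h and 187, 177 and 211 at 6 h under corticosterone. Its vehicle intensities were 322, 327 and 336 at 2 h, 176, 166 and 170.3 at 4 h and 404, 153 and 167 at 6 h. It stood higher with steroid at 2 h and close to vehicle at 6 h, except for vehicle 6 h replicate 1. The change was -1.77 ± 0.12 under corticosterone and -1.04 ± 0.09 in vehicle without that array, and the difference between these changes, -0.73 ± 0.15, was not called (adjusted p = 0.115). Mvd and Hsd17b7, enzymes of cholesterol synthesis, fell by 1.49 and 1.36 on the log2 scale, and their vehicle changes were -0.99 and -0.99 without that array and -1.69 and -0.53 with it. Rgs16 and Rgs8, which speed the switching off of G proteins, fell to 457, 432 and 548 and to 133, 140.5 and 175 at 6 h of corticosterone, against 1119.9, 1227 and 984 and 363, 357 and 298 at 2 h. Their vehicle changes, 0.37 and -0.19, did not pass the test, and neither did the tests of their difference from vehicle (adjusted p = 0.142 and 0.297).

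The transcript of 18S ribosomal RNA, Rn18s, moved as well. Its probe read 17863, 17745 and 19245 at 2 h, 8535, 12361 and 12961 at 4 h and 9322, 7818 and 8631 at 6 h under corticosterone, a fall of 1.09 on the log2 scale by 6 h. In vehicle it read 32492, 19404 and 1604 at 2 h, 3113, 1268 and 867 at 4 h and 95.6, 5979 and 5585 at 6 h, so that replicates of 1 time lay far apart. This probe, a sign of RNA composition, moved with time in the corticosterone arrays, and its part in the changes above was not tested.

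**Figure D2:**
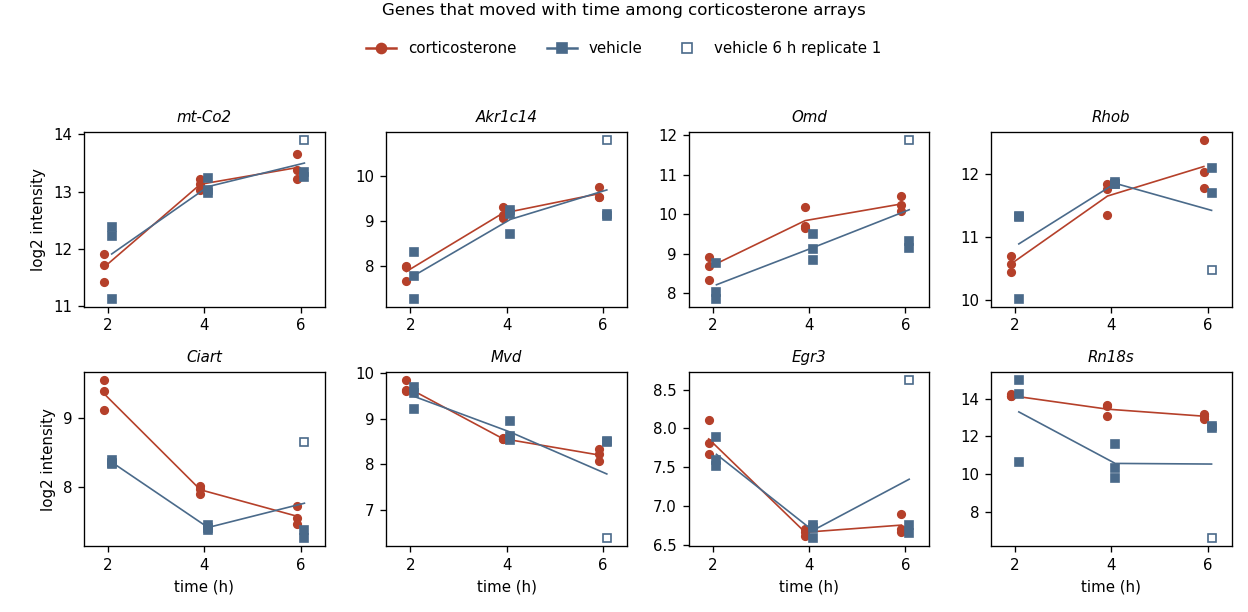
Log2 intensity at 2, 4 and 6 h on every array, drawn with circles for corticosterone, squares for vehicle and an open square for vehicle 6 h replicate 1; lines join group means of 3 arrays. Group means of mt-Co2, Akr1c14, Omd and Rhob lie higher and those of Ciart and Mvd lower at 6 h than at 2 h in both series, and Rn18s is spread widely among vehicle arrays.

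Immediate-early genes are transcribed within minutes of a stimulus and include many transcription factors. Of 13 measured, 2 rose and 9 fell between 2 and 4 h (background 13.7% higher and 12% lower), and 2 rose and 7 fell by 6 h (background 14.5% and 13.7%). Egr3, a zinc finger factor, read 276, 225 and 204 at 2 h, 98.2, 105 and 101 at 4 h and 119, 105 and 102 at 6 h with steroid, against 237, 184 and 193 at 2 h, 96.1, 105 and 108 at 4 h and 395, 101 and 108 at 6 h in vehicle. The 4 h and 6 h arrays lay below the 2 h arrays in both series, save vehicle 6 h replicate 1. Atf3, a stress-induced factor, fell by 0.96 by 6 h and changed by -1.17 in vehicle without that array. The members that rose were Egr1 and Fos, by 0.52 and 0.88, with changes of 0.86 and 0.65 in the same vehicle arrays. The list's median change was -0.46 with corticosterone and -0.39 in vehicle without 6 h replicate 1 (-0.22 with it), beside -0.01 for all genes tested.

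Of 16 cholesterol synthesis genes measured, 11 were lower and 1 higher at 6 h than at 2 h of corticosterone (background 13.7% lower and 14.5% higher) and 4 were not called, with a median of -0.44 against -0.26 in vehicle without 6 h replicate 1 and -0.61 with it. Sqle, which makes squalene epoxide, read 6188, 8089 and 7240.4 at 2 h, 4161, 5238 and 5189 at 4 h and 4787, 4511 and 5372 at 6 h with steroid. In vehicle it read 6227, 9453 and 9595 at 2 h, 7634, 7797 and 7696 at 4 h and 982, 7077 and 6892 at 6 h. It fell by 0.55 by 6 h, with a second step of 0.01, and vehicle changed by -0.24 ± 0.18 without replicate 1 at 6 h. None of the 16 was among the genes that differed from vehicle on average over the 3 times when all arrays were used (background 1.87%). When vehicle 6 h replicate 1 was left out, 7 were lower than vehicle (background 6.42%), Sqle among them.

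To separate the response to the steroid from this movement, genes were first chosen by their mean difference from vehicle over the 3 times, a measure that does not use differences between times. This gave 354 steroid-response genes, 187 higher and 167 lower with corticosterone (1.87% of genes tested). Without vehicle 6 h replicate 1 there were 1996, 780 higher and 1216 lower (10.5% in all, 4.12% and 6.42%), and the 354 were among them. Leaving out 1 other array gave 196 (corticosterone 6 h replicate 2) to 435 (vehicle 6 h replicate 2), save 833 without vehicle 2 h replicate 1, and array weights gave 4982. Each of the 354 was then sorted by its course among the corticosterone arrays. A gene was called still building if it changed further between 4 and 6 h, levelled off if it changed by 4 h and its second step lay within 0.5 of 0, grown by 6 h if it was called at 6 h against 2 h and in neither of these, faded if it moved back, and steady if no step was called and all intervals lay within that band. The sorting describes the genes and carries no test of its own, since the steps share arrays.

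No response gene was called still building, because none was called between 4 and 6 h by limma. With array weights 68 of 2256 higher and 74 of 2726 lower genes were. Of the 187 higher genes, 51 had grown by 6 h, 18 had levelled off, 41 were steady from 2 h, 17 had faded and 60 were unresolved. Of the 167 lower genes, 9 had fallen further by 6 h, 41 had levelled off, 42 were steady, 7 had faded and 68 were unresolved. Of the higher genes 68 rose between 2 and 6 h, or 36.4% beside a background of 14.5%, and the median difference from vehicle of the 187 was 0.48, 0.76 and 0.83 at 2, 4 and 6 h. Of the 780 chosen without vehicle 6 h replicate 1, 25.1% rose and 13.8% fell, with median differences of 0.30, 0.47 and 0.39 when that array was left out of the 6 h value as well. Of the lower genes 35 fell, or 21% beside 13.7%. In the 51 genes that grew, the median step was 0.37 from 2 to 4 h and 0.37 from 4 to 6 h, while vehicle changed by -0.03. Of these genes 27 were already called at 4 h. They differ by the rule from genes that levelled off only in that the interval of their second step reached past 0.5. Their median difference from vehicle was 0.47 at 2 h, 0.93 at 4 h and 1.29 at 6 h, or 1.31 at 6 h without vehicle replicate 1. Their rise with corticosterone follows from the rule that sorted them. The same arrays enter these differences, so the medians only describe the group.

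**Figure D3:**
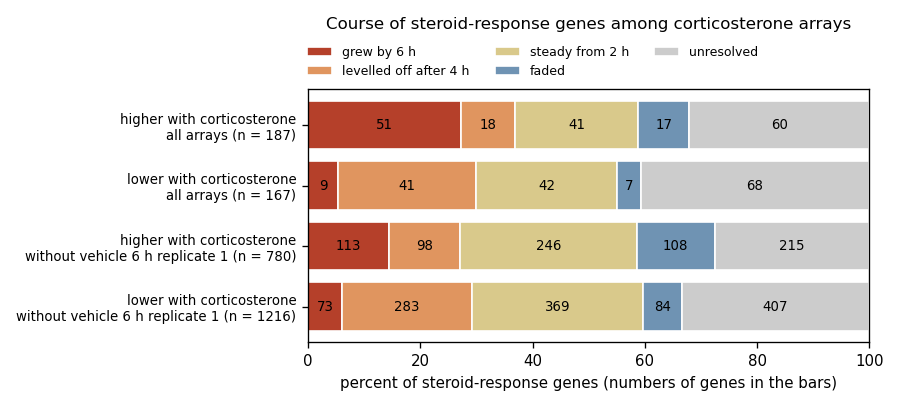
Share of steroid-response genes in each course among corticosterone arrays, in percent, with numbers of genes in the bars. The upper bars use all vehicle arrays and the lower bars leave out vehicle 6 h replicate 1; genes that grew by 6 h make up 51 of 187 higher genes and 9 of 167 lower genes in the upper pair.

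The gene with the largest response was Fam107a, a stress-induced regulator of actin. Its intensities with corticosterone were 1203, 1565 and 1699 at 2 h, 2983, 4659 and 4819.8 at 4 h and 6194, 6194 and 6214 at 6 h. In vehicle they were 242, 317 and 407 at 2 h, 335, 366 and 389 at 4 h and 106, 335 and 353 at 6 h. The 3 corticosterone groups did not overlap, and those at 6 h lay within 6194 to 6214. It rose 2.76-fold by 4 h and 4.21-fold by 6 h, log2 changes of 1.46 ± 0.17 and 2.07 ± 0.17 (SE, adjusted p = 0.000407 and 3.84e-05). The step from 4 to 6 h, 0.61 ± 0.17, was not called (adjusted p = 0.246).

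The feedback co-chaperone Fkbp5 read 722, 744 and 593 at 2 h, 1301, 1450.1 and 1602 at 4 h and 1898, 1848 and 1916 at 6 h with corticosterone, against 230.5, 184 and 242 at 2 h, 193, 189.7 and 208 at 4 h and 345, 166 and 186 at 6 h in vehicle. Each later corticosterone group lay above the one before, while vehicle was flat but for replicate 1 at 6 h. Its rise by 6 h was 1.47 ± 0.11, of which 1.08 came by 4 h. Tsc22d3, which encodes the glucocorticoid-induced leucine zipper, a mediator of anti-inflammatory actions, rose by 1.38 ± 0.11 to 8098, 9257 and 9839 at 6 h of corticosterone, against 4013, 1430.5 and 1393 in vehicle. Vehicle changed by 0.52 without replicate 1, and the difference between the changes, 0.87 ± 0.22, was not called (adjusted p = 0.286).

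The genes that grew included enzymes and carriers of amino acid and lipid metabolism. Prodh, the mitochondrial enzyme that opens proline breakdown, read 308, 217 and 281 at 2 h, 709.9, 682 and 756 at 4 h and 1192, 1162 and 941 at 6 h with corticosterone. In vehicle it read 272, 140 and 159 at 2 h, 168, 167 and 152 at 4 h and 412, 164 and 165 at 6 h. At 2 h the groups overlapped, and at 4 h and 6 h all corticosterone arrays lay above all vehicle arrays. Its rise, 4.11-fold, was 1.43 ± 0.13 by 4 h and 2.04 ± 0.13 by 6 h, and its other probe was called alike. Bcat1, which transfers amino groups from branched-chain amino acids, rose to 1193, 1332 and 1633 at 6 h, against 647, 623 and 629 at 2 h, a change of 1.12 ± 0.13. Folh1, which releases glutamate from the dipeptide N-acetylaspartylglutamate, rose by 1.12 ± 0.14 by 6 h, and its 4 h and 6 h arrays overlapped.

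Plin4, a coat protein of lipid droplets, rose by 1.16 ± 0.11 by 6 h. It read 385, 306 and 302 at 2 h, 463, 512 and 523 at 4 h and 734, 716 and 752 at 6 h with corticosterone, against 228, 183 and 202 at 2 h, 198, 162 and 158 at 4 h and 128, 166 and 178 at 6 h in vehicle, and its 3 corticosterone groups did not overlap. Sult1a1, a sulfotransferase of phenols, rose by 0.73 by 4 h and 1.32 by 6 h, and Slc25a33, a mitochondrial carrier of pyrimidine nucleotides, by 0.32 and 0.73. Slc25a33 fell meanwhile in vehicle, by 0.65 without 6 h replicate 1 (adjusted p = 0.0203), so that its difference from vehicle was 0.98 at 2 h, 1.77 at 4 h and 2.35 at 6 h without that array. That array alone read 86.1 for it.

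Of genes for channels and junction proteins, Kcnt1, a potassium channel opened by sodium, lay below the array median on all vehicle arrays, at 82.5, 75.6 and 81.1 at 2 h, 89.8, 78 and 80.4 at 4 h and 72, 78 and 85.4 at 6 h. With corticosterone it read 114, 102 and 123 at 2 h, 156, 169 and 187 at 4 h and 261, 279 and 249.5 at 6 h, 3 groups without overlap. Its steps were 0.60 ± 0.10 and 0.63 ± 0.10, and the second was not called (adjusted p = 0.115). Gjb6, the astrocyte gap junction protein connexin 30, rose by 1.18 ± 0.11 by 6 h, to 588, 568 and 481 at 6 h of corticosterone, against 336, 108 and 105 in vehicle. Cldn2, a claudin that forms cation pores in tight junctions, rose by 0.96 ± 0.11 while vehicle changed by -0.43 without 6 h replicate 1. Slc24a4, which exchanges sodium for calcium and potassium, rose by 0.85 ± 0.11 and at 2 h its groups had overlapped, with 253, 266 and 256 under corticosterone and 257, 254 and 264 in vehicle.

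Others of the group encode signalling or secreted proteins. Mapk4, an atypical MAP kinase, read 223, 206 and 201 at 2 h, 322, 419 and 482 at 4 h and 451, 498 and 541 at 6 h with corticosterone, against 136, 158 and 168 at 2 h, 142, 142 and 135 at 4 h and 79.8, 126 and 137 at 6 h in vehicle. Cntfr, the receptor subunit for ciliary neurotrophic factor, read 86.4, 80.3 and 89.2 at 2 h, 129.8, 120.1 and 127 at 4 h and 157, 163 and 149 at 6 h with corticosterone, against 84.2, 91.9 and 82.7 at 2 h, 93.7, 89.5 and 96.8 at 4 h and 78.3, 89 and 91.4 at 6 h in vehicle. For Cntfr the 2 h groups overlapped and the later ones did not, and all vehicle and 2 h values lay below the array median of 110.5 to 111.2. Lcn2, a secreted protein that binds iron carriers, read 477, 521 and 430 at 2 h, 565, 402 and 455 at 4 h and 865, 630.3 and 878 at 6 h under corticosterone. In vehicle it read 341, 264 and 322 at 2 h, 238, 262 and 240 at 4 h and 102, 160.2 and 156 at 6 h. Under corticosterone it changed by -0.02 ± 0.15 by 4 h, which was not called, and by 0.74 ± 0.15 after that (adjusted p = 0.18), while vehicle fell by 0.96 by 6 h without replicate 1 (adjusted p = 0.0125). Rhou, an atypical small GTPase, rose by 0.68 ± 0.13 by 6 h, and its 4 h and 6 h arrays overlapped.

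All 51 genes rose between 2 and 6 h by the rule that sorted them, by 0.33 to 2.07 on the log2 scale. In vehicle without 6 h replicate 1, 23 of the 51 moved the same way, beside 79.1% of all genes tested. Further ones are described here, chosen after their values were seen. Vehicle values are given here for Mt2 alone, so the other rises are changes under corticosterone and not changes against vehicle. Of genes that handle lipids, Mgll, which splits monoacylglycerols and the endocannabinoid arachidonoylglycerol, rose by 0.88 ± 0.14 by 6 h, Acsl3, which activates fatty acids, by 0.66 ± 0.15, Lpin3, a phosphatidate phosphatase, by 0.37 ± 0.10 and Adipor2, an adiponectin receptor, by 0.53 ± 0.10. Of metal-handling genes, the metallothionein Mt2 rose by 0.85 ± 0.28 and the copper pump Atp7b by 0.48 ± 0.11. Mt2 read 1814, 1428 and 1354 at 2 h, 3799.6, 1957 and 1874 at 4 h and 3356, 1794 and 3390.2 at 6 h with corticosterone, against 1604, 721 and 962 at 2 h, 1105, 1612 and 1328 at 4 h and 1229, 960 and 1261 at 6 h in vehicle, and its groups overlapped at 2 h and not at 6 h. Smox, which oxidises spermine, rose by 0.62 ± 0.13, Ada, which deaminates adenosine, by 0.53 ± 0.15, and Adora1, the adenosine A1 receptor, by 0.46 ± 0.13. The small heat shock protein gene Hspb1 rose by 0.98 ± 0.15, Ramp2, a partner of the calcitonin-like receptor, by 0.99 ± 0.10, and Scel, which encodes sciellin, by 0.98 ± 0.10. Scel took much of its change after 4 h, at 148, 170.5 and 174 at 4 h and 234, 231 and 263 at 6 h, but that step was not called (adjusted p = 0.115).

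**Figure D4:**
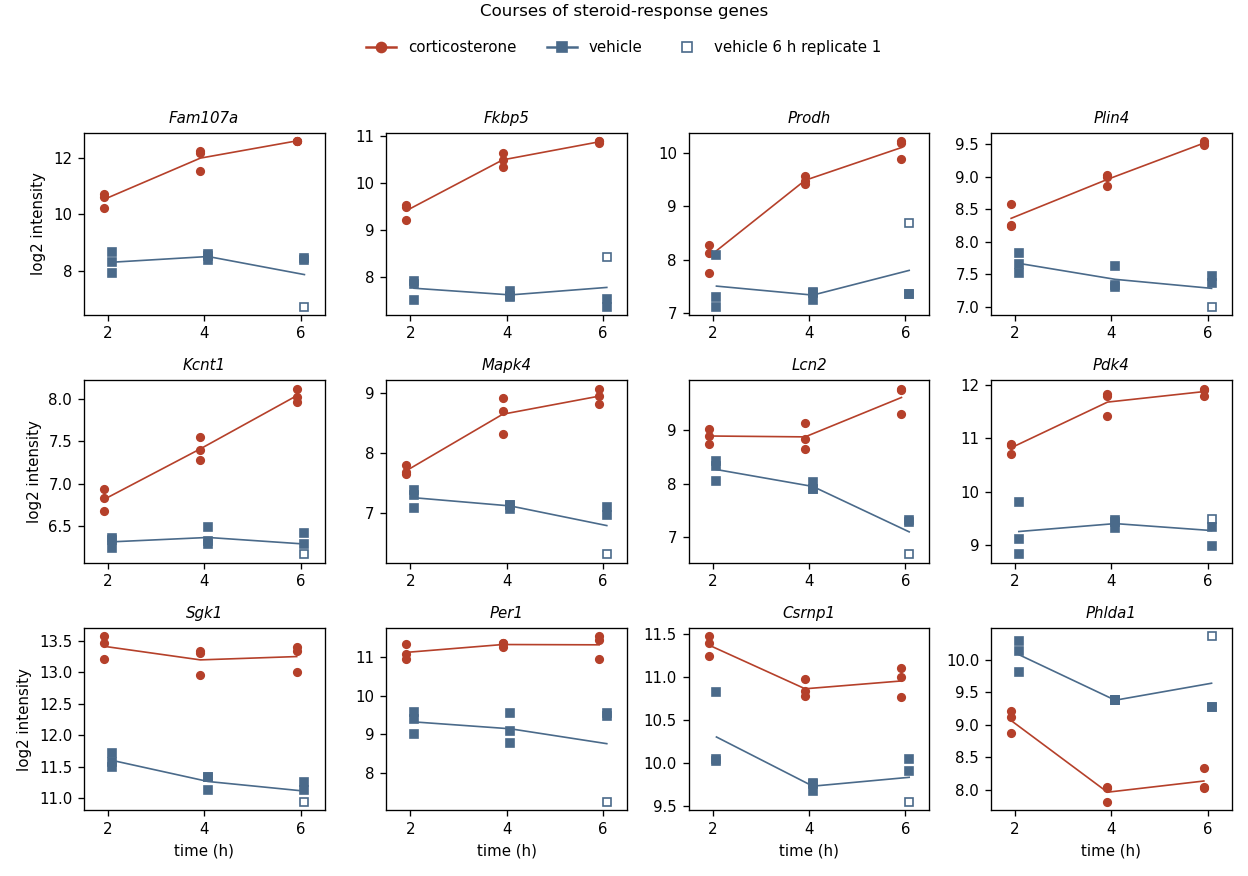
Log2 intensity of 12 steroid-response genes at 2, 4 and 6 h on every array, drawn with circles for corticosterone, squares for vehicle and an open square for vehicle 6 h replicate 1; lines join group means of 3 arrays. Fam107a, Fkbp5, Prodh, Plin4, Kcnt1, Mapk4 and Lcn2 grew by 6 h; Pdk4 and Phlda1 levelled off after 4 h, Sgk1 and Per1 were unresolved, and Csrnp1 faded.

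The promoter windows of the response genes were read for the letters of the glucocorticoid response element, the palindrome that the receptor is known to bind, because members that moved together could share them. The windows span the start of each gene in RefSeq (GRCm38.p6), mostly before it, and 40 of the 51 genes that grew had one. The core GNACANNNTGTNC, which is its own reverse complement, was in the windows of 4 of these 40 (10%), namely Fam107a, Folh1, Slc10a6 and Car14, beside 0.537% of 27025 gene symbols with a window and 0.448% of the genes tested. Among the 121 higher response genes with a window it was found also in Txnip, 1 of 22 steady from 2 h, and Sgk1, 1 of 35 unresolved. Among 110 lower response genes with a window it was found in none. The full palindrome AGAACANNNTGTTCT, which contains the core, was in Sgk1 alone of the genes tested that had a window. RefSeq lists several starts for some genes: the core stood at 1 of 6 listed starts of Sgk1 and at 2 of 3 of Fam107a, and a gene counts as matched if any start is. The motif was chosen with these gene groups known, a match is not a site, and most genes that grew, Fkbp5 among them, had no match in this window. The 250 bases before the start follow for 2 genes that grew and for the 2 that had not, on the strand of the gene, with the core in capitals, so that its letters and place can be compared.
Fam107a, chr14:8309780-8310029, minus strand: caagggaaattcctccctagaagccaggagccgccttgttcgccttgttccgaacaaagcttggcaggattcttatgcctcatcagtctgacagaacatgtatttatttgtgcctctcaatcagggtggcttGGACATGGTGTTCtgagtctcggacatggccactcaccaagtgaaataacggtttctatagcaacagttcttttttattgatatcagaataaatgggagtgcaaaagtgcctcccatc
Folh1, chr7:86775865-86776114, minus strand: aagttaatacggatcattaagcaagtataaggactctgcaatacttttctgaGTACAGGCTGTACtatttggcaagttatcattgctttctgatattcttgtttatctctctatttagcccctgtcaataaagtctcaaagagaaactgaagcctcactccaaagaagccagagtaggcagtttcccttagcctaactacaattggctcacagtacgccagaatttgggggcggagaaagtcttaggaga
Sgk1, chr10:21993640-21993889, plus strand: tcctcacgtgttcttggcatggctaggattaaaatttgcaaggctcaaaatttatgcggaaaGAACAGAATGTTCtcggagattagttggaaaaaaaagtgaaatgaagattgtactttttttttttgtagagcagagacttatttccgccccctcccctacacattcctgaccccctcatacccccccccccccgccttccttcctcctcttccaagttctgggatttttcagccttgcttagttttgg
Txnip, chr3:96557707-96557956, plus strand: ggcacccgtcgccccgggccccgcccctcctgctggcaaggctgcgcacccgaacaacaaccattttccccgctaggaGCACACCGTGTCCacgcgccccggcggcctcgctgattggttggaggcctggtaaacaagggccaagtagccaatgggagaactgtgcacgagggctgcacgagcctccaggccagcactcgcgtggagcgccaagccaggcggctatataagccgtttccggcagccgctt
The first base of the core lay at position -118 in Fam107a, -198 in Folh1, -188 in Sgk1 and -172 in Txnip, counted back from the base before the start. In Slc10a6 its letters were GAACACGATGTGC and in Car14 GAACACGGTGTCC. Slc10a6, a carrier of sulfated steroids, rose to 212, 203 and 242 at 6 h of corticosterone, against 135, 131 and 128 at 2 h, and Car14, a carbonic anhydrase of the cell surface, to 296, 289.6 and 312, against 181, 194 and 186.

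Whether the effect against vehicle itself grew was tested as the difference between the corticosterone minus vehicle differences at 2 times. Between 2 and 6 h it was larger at 6 h for 5 genes (0.0264% of those tested), all of which had grown by 6 h. They were Lcn2 (1.89 ± 0.27, SE, adjusted p = 0.0274), Mapk4 (1.71 ± 0.26, 0.0402), Plin4 (1.54 ± 0.20, 0.0173), Kcnt1 (1.25 ± 0.15, 0.0158) and Cntfr (0.88 ± 0.13, 0.0349). Without vehicle 6 h replicate 1 there were 22 (0.116%), 20 of them higher (0.106%) and 2 lower (0.0106%), the 5 included, and 75 with array weights. Kcnt1 and Cntfr were dim on all vehicle arrays, with no measure of background used here, so the size of their difference is uncertain. Of the corticosterone and vehicle arrays, only corticosterone arrays lay above the median for these 2 genes. Those arrays alone were enough to pass them through the filter on dim probes, and without that filter 3 genes were called. The added genes included Fkbp5 (1.77 ± 0.17, adjusted p = 0.000173), Fam107a (1.95 ± 0.28, 0.00432), Prodh (2.19 ± 0.28, 0.00136) and Sult1a1 (1.67 ± 0.17, 0.000173). The count was 0 without corticosterone 2 h replicate 2, corticosterone 6 h replicate 3 or vehicle 2 h replicate 3, 1 without corticosterone 2 h replicate 3, 6 without vehicle 6 h replicate 3, and 2 to 4 without any other array but vehicle 6 h replicate 1. For the first step limma called no gene with all arrays (281 at an unadjusted p under 0.05), 5 without vehicle 6 h replicate 1 and 15 with array weights. For the second it called none with or without that array (573 and 750 at an unadjusted p under 0.05) and 427 with array weights.

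Genes that levelled off had a called change by 4 h and a second step with its interval within 0.5 of 0, as the rule required. Their median first step was 0.58 for higher and -0.48 for lower genes, about the size of that band. Pdk4, the kinase that shuts off pyruvate dehydrogenase, read 1664, 1868 and 1909.9 at 2 h, 2739, 3526 and 3632 at 4 h and 3533, 3829 and 3902 at 6 h with corticosterone, against 456, 558 and 900.5 at 2 h, 639, 707 and 689.8 at 4 h and 719, 509.9 and 648 at 6 h in vehicle. The 4 h and 6 h arrays overlapped and both lay above 2 h. Its steps were 0.85 ± 0.11 and 0.20 ± 0.11. Hdc, which makes histamine, rose by 0.55 ± 0.16 by 4 h and changed by 0.03 ± 0.16 after it, and St6galnac2, a sialyltransferase, by 0.47 and then 0.08. Klf15, a transcription factor of amino acid metabolism, rose 2-fold in the first step (1.00 ± 0.14) and changed by -0.03 in the second, and vehicle rose in its first step as well, by 0.60 (adjusted p = 0.0146 without replicate 1 at 6 h).

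Sgk1, Per1 and Klf9 had no called change among the corticosterone arrays. Sgk1, a kinase that controls ion transport, read 9453, 11283 and 12188 at 2 h, 7942, 10352 and 10092 at 4 h and 10783, 10406 and 8251 at 6 h with corticosterone, against 2899, 3064 and 3381 at 2 h, 2229.5, 2572 and 2597 at 4 h and 1963, 2249 and 2456 at 6 h in vehicle. All corticosterone arrays lay above all vehicle arrays at each time, and the corticosterone groups overlapped one another. Its difference from vehicle was 1.81 at 2 h, 1.93 at 4 h and 2.14 at 6 h, or 2.05 at 6 h without vehicle replicate 1. Per1, a clock repressor, differed by 1.81 at 2 h and 2.58 at 6 h, or 1.82 at 6 h without replicate 1, and Klf9, a zinc finger factor, by 1.57 at 2 h and 1.87 at 6 h (1.97 without it). At least 1 of the 3 intervals of each reached past 0.5, so they were unresolved. Pim3, a survival kinase, and Mertk, a receptor for engulfing dead cells, changed by 0.31 ± 0.12 and 0.37 ± 0.14 by 6 h and missed the threshold (adjusted p = 0.0667 and 0.0612).

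Among steady genes, Txnip, which binds and inhibits thioredoxin, read 12419, 11206 and 11523 at 2 h, 8251, 11118 and 11948 at 4 h and 9506, 12991 and 11074 at 6 h with corticosterone, against 8786, 4787 and 6052 at 2 h, 5724, 6346 and 6232 at 4 h and 2004, 6057 and 5337 at 6 h in vehicle. Its steps were -0.18 ± 0.14 and 0.11 ± 0.14. Zhx3, a homeobox repressor, changed by -0.02 ± 0.10 over the whole interval, Pnpla2, the first lipase of fat breakdown, by 0.17 ± 0.12 and Spsb1, an adaptor of ubiquitin ligases, by -0.18 ± 0.10. For Spsb1 vehicle fell by 0.79 by 4 h without 6 h replicate 1 (adjusted p = 0.0274), so a level that held with corticosterone stood beside one that fell in vehicle. The 41 higher genes in this course had a median difference from vehicle of 0.41 at 2 h, 0.50 at 4 h and 0.60 at 6 h, or 0.52 at 6 h without replicate 1.

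Most genes that faded moved the same way in vehicle, as did most genes called between 2 and 6 h. The 17 higher genes that faded fell by a median of 0.53 by 6 h with corticosterone. They changed by -0.26 in vehicle without replicate 1 at 6 h, where 16 of the 17 were lower at 6 h than at 2 h. Of all genes called between 2 and 6 h of corticosterone, 94.2% moved the same way in those vehicle arrays. Csrnp1, a nuclear protein of the immediate-early kind, read 2843, 2695 and 2429 at 2 h, 1754, 1825 and 2020.5 at 4 h and 2194, 2042 and 1744 at 6 h with corticosterone. In vehicle it read 1819, 1045 and 1062 at 2 h, 872, 815 and 866 at 4 h and 749, 1063 and 958 at 6 h. Its difference from vehicle was 1.07, 1.13 and 1.12 at the 3 times, or 0.98 at 6 h without replicate 1. Pik3r1, a regulatory subunit of PI 3-kinase, and Rasl11a, a small GTPase, likewise fell by 0.53 and 0.78 and had differences of 1.01 and 0.83 at 6 h (0.89 and 0.83 without that array). Bach1, a repressor of heme oxygenase, and Usp37, a deubiquitinating enzyme, had smaller differences later, with 1.14 and 0.87 at 2 h and 0.04 and 0.13 at 6 h without replicate 1 (0.31 and 0.64 with it), but the change in effect was not called (adjusted p = 0.41 and 0.805). Sphk1, which makes sphingosine 1-phosphate, fell by 0.58 with corticosterone and had a difference of 1.30 at 2 h and 0.75 at 6 h (0.98 without replicate 1).

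Of the genes lower with corticosterone, 41 levelled off and 9 fell further by 6 h. In vehicle without 6 h replicate 1, 36 of the 41 and 6 of the 9 moved the same way. The same held for 94.2% of all genes called between 2 and 6 h and 79.1% of all genes tested. The 41 changed by a median of -0.33 in those vehicle arrays, beside -0.41 with corticosterone. For none of the 9 was a change in effect called. Phlda1, a pleckstrin-homology protein of growth factor signalling, read 559, 591 and 468 at 2 h, 225, 262 and 264 at 4 h and 262, 264 and 322 at 6 h with corticosterone, against 902, 1258 and 1124 at 2 h, 665, 666 and 669.5 at 4 h and 1319, 622 and 623 at 6 h in vehicle. It fell by 1.10 by 4 h and changed by 0.17 ± 0.12 after it, and vehicle fell by 0.70 in the first step (adjusted p = 0.0224 without 6 h replicate 1). Dgkg, a diacylglycerol kinase, fell by 0.56 and Lmcd1, a LIM-domain regulator, by 0.71 by 4 h, with second steps of -0.21 and 0.01. Among the 9 was Kcna6, a voltage-gated potassium channel, at 2706, 2584 and 3013 at 2 h, 1762, 2061 and 2057 at 4 h and 1152, 1535 and 1699.5 at 6 h with corticosterone, against 4048, 2373 and 2966 at 2 h, 2904, 3099 and 2827 at 4 h and 4578, 2483 and 2971 at 6 h in vehicle. Its 3 corticosterone groups did not overlap. Diras2, a Ras-like GTPase, fell by 1.33 by 6 h with corticosterone and by 0.66 in vehicle without replicate 1, and Ngfr, the low-affinity neurotrophin receptor, fell by 0.40. Marcksl1, an actin-binding substrate of protein kinase C, moved back, rising by 0.81 ± 0.14 with corticosterone beside a vehicle difference of 0.70 ± 0.26 without replicate 1.

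The lists of related genes were read by their counts and medians. Of 27 glucocorticoid-induced genes measured, 14 rose and 2 fell between 2 and 6 h of corticosterone (background 14.5% and 13.7%). Of the 27, 17 were higher response genes and none was lower (background 0.988% and 0.882%). Without vehicle 6 h replicate 1 these counts were 22 and none (background 4.12% and 6.42%). The list was drawn up with such genes in mind and is not independent evidence of its direction. Its median change was 0.45, against -0.03 in vehicle without 6 h replicate 1 and 0.02 with it. The members that fell, Cebpb and Cdkn1c, fell by 0.46 and 0.53, and vehicle changed by -0.52 and -1.22. Of 11 claudin and tight junction genes 5 rose and none fell. Their median change was 0.48, against -0.01 in vehicle without replicate 1 and 0.28 with it. Taken gene by gene, their 2 changes differed by a median of only 0.13 without that array. Those that rose included Cldn2, Cldn12, Jam2 and Tjp1, and of the 11 Cldn2 alone was a response gene (3 were without vehicle 6 h replicate 1), while Tjp1, a scaffold protein of the junction, rose by 1.12 beside a vehicle change of 0.99 without replicate 1.

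Counts for the other lists follow, beside a background of 14.5% higher and 13.7% lower by 6 h. A count near these shares says nothing particular about its list. Of 13 clock genes 5 rose and 4 fell by 6 h. Dbp, an output gene of the clock, fell by 1.19 and Nr1d1, a repressor of the loop, by 0.94, while Arntl, its activator, rose by 0.43. The vehicle changes of these 3 were -0.16, -0.43 and 0.27 without 6 h replicate 1, none of which passed the test, and -0.48, -0.69 and 0.57 with it. With all arrays a change in the steroid effect between 2 and 6 h was called for none of the 13. A missed threshold in vehicle therefore does not make these changes particular to the steroid. Of 17 stress genes 6 rose and 2 fell, of 15 steroid receptor and chaperone genes 4 and 1, with the receptor gene Nr3c1 itself up by 0.46 ± 0.12, beside 0.41 ± 0.15 in vehicle. Of 11 genes of MAP kinase and EGF receptor feedback 2 rose and 6 fell by 4 h (background 13.7% and 12%), and 1 and 4 by 6 h. Of 16 reactive astrocyte genes 4 rose and 1 fell, of 17 inflammatory genes 2 and 3, of 15 interferon genes 1 and 3, of 20 cell cycle genes 3 and 2, of 18 matrix genes 3 and 0, of 17 lipid genes 3 and 2, of 18 glucose genes 3 and 2, of 15 amino acid and glutamate genes 4 and 2, of 15 FoxO and insulin genes 2 and 2, of 11 TGF-beta and BMP genes 3 and 2, and of 11 growth factor genes 2 and 3.

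**Figure D5:**
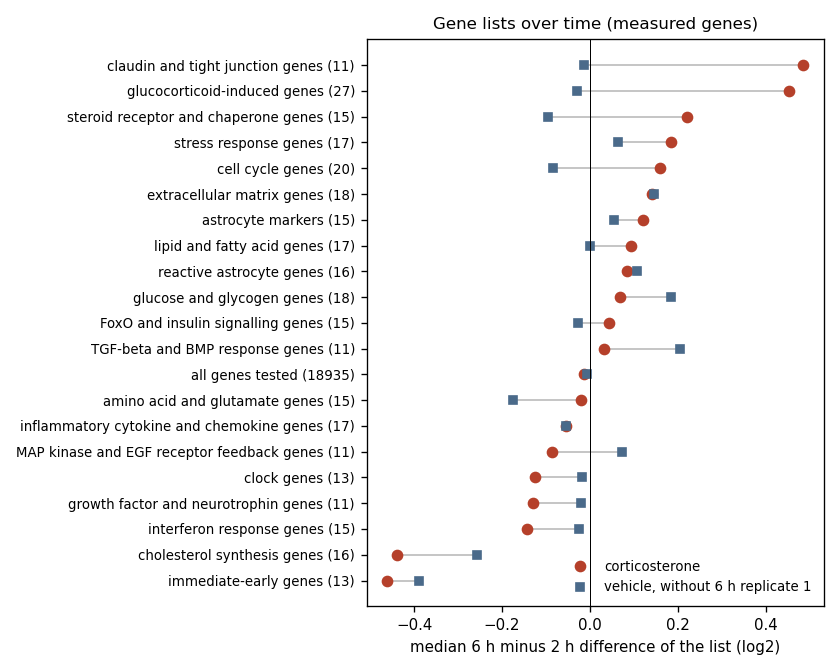
Median difference between 6 h and 2 h of each gene list, in log2 units, for corticosterone (circles) and for vehicle without 6 h replicate 1 (squares), with the number of measured genes in brackets. Claudin and glucocorticoid-induced genes have high medians with corticosterone and medians near 0 in vehicle, while immediate-early and cholesterol synthesis genes lie below 0 in both. Taken gene by gene, the 2 changes differed by a median of 0.13 for claudin and 0.43 for glucocorticoid-induced genes.

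Of 15 astrocyte markers 4 rose and 3 fell by 6 h (background 14.5% higher and 13.7% lower, here and for the markers below). Those that rose included Gjb6 and Glul, the enzyme that makes glutamine, which rose by 1.28 ± 0.15 beside a vehicle difference of 0.44 without replicate 1, which did not pass the test. Slc1a2, a glutamate transporter, fell by 0.36. None of 8 neuronal markers rose and 1 fell, none of 9 oligodendrocyte-lineage markers rose and 2 fell, and none of 8 endothelial markers rose and 1 fell. Of the microglial markers 1 of 10 rose and none fell, and their summed intensity was 2512.1 to 3289.9 at 2 h, 2949.5 to 4384.8 at 4 h and 2102.8 to 3128.5 at 6 h of corticosterone. Of the fibroblast and meningeal markers 2 of 7 rose and none fell. Col1a2 and Pdgfrb rose by 0.62 and 0.99, against 0.76 and 0.70 in vehicle without replicate 1, and their sum was 1871.8 to 2137.3, 1790.8 to 2152.4 and 2384.5 to 2442 at these times, so that the 6 h arrays lay above the earlier ones. Their part in the changes above was not tested.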

How the data were processed

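Expression was read on Illumina bead arrays in 9 corticosterone and 9 vehicle arrays of 36. The deposited values were intensities on a linear scale; the submitters' processing notes name GenomeStudio, without its role or version. All columns shared nearly the same sorted values, with a largest difference of 1.15%, so they were already normalized between arrays; the background method is not given in the sources used here. Deposited intensities spanned 59.6 to 46908 and were log2-transformed with no further scaling. Of 45281 probes, 28397 brighter than the array median on at least 3 arrays were kept, and the brightest probe stood for each of 18935 genes. Symbols came from the deposited annotation, updated through RefSeq (GRCm38.p6): 11396 were current, 3040 were updated and 4499 kept. Precision is limited by the 3 arrays per group. Another 72 deposited columns matched no sample and were not used.

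Contrasts among the corticosterone arrays were fitted to those 9 arrays alone (6 residual degrees of freedom), and those against vehicle to 18 arrays, with limma 3.58.1 (R 4.3.3) and Benjamini-Hochberg adjustment over all genes at 0.05. Calls of 6 h against 2 h of corticosterone were tested on simulated data with known changes, in which all genes of an array had the same spread. The other calls and the sorting by course were not tested in that way. Differences are log2 and errors are SE unless stated. The members and the 25 gene lists (379 genes, 328 measured) were chosen with earlier results of these data known. Genes were named by their size of change among called genes with no overlap between times, by mean effect within each course, by the test of the steroid effect, or as list members; Cntfr, Slc24a4, Slc25a33, Slc10a6, Car14, Rn18s and the remaining genes that grew were named after their values were seen. Alternatives covered filters on dim probes, normexp, all probes, a spread pooled over all arrays, weighted arrays, a trend with intensity, the replicate block and leaving out each array. Promoter windows were RefSeq's. Figures were drawn with matplotlib 3.10.9. Some genes are not reported here.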

Additional observations from a re-analysis of the deposited data

Results flagged for a closer look

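For 5 genes the difference between corticosterone and vehicle was larger at 6 h than at 2 h by limma's test of that change: Lcn2 by 1.89, Mapk4 by 1.71, Plin4 by 1.54, Kcnt1 by 1.25 and Cntfr by 0.88 on the log2 scale. They stand out because the effect of the steroid itself, and not only the level under it, differed between 2 times. In vehicle all 5 had their lowest intensity on 6 h replicate 1, the array that stood apart, at 102 for Lcn2, 79.8 for Mapk4, 128 for Plin4, 72 for Kcnt1 and 78.3 for Cntfr. Without that array all 5 were still called, among 22 genes. Without corticosterone 2 h replicate 2, corticosterone 6 h replicate 3 or vehicle 2 h replicate 3 none was, and an intensity trend left 2 calls and the replicate block 3. Kcnt1 and Cntfr lay below the array median on all vehicle arrays, so the size of their difference is uncertain. Of the arrays compared here, only corticosterone arrays lay above the median for them, enough to pass the filter on dim probes. Without that filter 3 genes were called.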

How the results depend on the processing

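Leaving out 1 array at a time gave 2841 to 4916 genes at 4 h against 2 h, 3364 to 6357 at 6 h against 2 h and 0 at 6 h against 4 h. It gave 0 to 736 genes moving in vehicle, 0 to 5, 0 and 0 to 22 for the steroid effect at 4 h against 2 h, 6 h against 4 h and 6 h against 2 h, 196 to 1996 response genes, and 0 still building, 23 to 381 levelled off, 39 to 186 grown by 6 h and 9 to 192 faded. The highest of the response and course counts came without vehicle 6 h replicate 1, and vehicle 2 h replicate 1 gave 833, 118, 72 and 121 for response, levelled off, grown and faded genes. Array weights gave 819 genes at 6 h against 4 h, 3267 in vehicle, 15, 427 and 75 for the 3 steroid effects, 4982 response genes, 142 still building, 1045 levelled off, 190 grown and 901 faded. Pooling the spread over all 36 arrays gave 696 and 993 genes at 4 h and 6 h against 2 h, 1990 in vehicle, 1 and 11 for the steroid effect at 4 h and 6 h against 2 h, 560 response genes, 22 levelled off and 15 faded. A strict filter on dim probes, which tests fewer genes, gave 2324 and 2947 genes at 4 h and 6 h, 3 for the steroid effect at 6 h and 14 faded. No filter gave 3 for that effect, an intensity trend 2, and normexp gave 1 gene at 6 h against 4 h and 35 levelled off. The replicate block gave 3 for that effect, and for the rest 4703, 0 and 5234 time calls, 0 in vehicle, 348 response genes, 71 levelled off, 65 grown and 25 faded. Arrays of the same number deviated together with r of -0.31 to 0.22 in 9 pairs, 5 of them over 0.1, and 3 of 9 corticosterone arrays correlated best with their own number. All 3 pairs of 4 h with 6 h were over 0.1 (0.149, 0.124 and 0.167), but 4 of the 6 pairs with 2 h were not, so the numbers were not taken to pair the arrays. Where a count moved, the cause was not tested unless stated. Across these settings, 32 named contrasts among corticosterone arrays kept direction and side of the threshold in 534 fits and lost the call in 10. For 20 genes named for the steroid effect this held in 419, with 61 calls lost and 35 gained. The main fit called only 5 genes for any steroid effect, so the lost calls could come from these alone. Genes not called there counted as kept wherever they stayed uncalled, so the 419 do not measure how firm the 5 calls were.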
